A study of Mus musculus with 6 samples.

Results

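Transcripts of 6 receptors that steer T cells to tissues and hold them there were followed in OT-I cells with and without Themis. They are the integrin alpha chains Itgae and Itga1 and the chemokine receptors Ccr9, Ccr4, Cxcr3 and Cx3cr1. They were selected by gene symbol, and all 6 were found among the 854 genes of the deposited table. OT-I cells are CD8 T cells with a transgenic receptor for an ovalbumin peptide, and Themis is a T cell protein that takes part in signalling from that receptor. Naive OT-I cells from spleen and lymph nodes, either wild-type (WT) or with a conditional knockout (cKO) of Themis, spent 3 days in culture with 1 µg/ml IL-2, and each genotype gave 3 libraries. Both genotypes carried the OT-I receptor and received the same IL-2. The labels name neither the Cre driver of the knockout nor the age of the mice, nor whether replicates were separate mice or cultures. P-values therefore cover the spread among these 6 libraries, and that spread may be technical.

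Lymphocytes find tissues through chemokine receptors, G protein-coupled receptors that sense chemokine gradients, and through integrins, adhesion receptors built from an alpha and a beta chain. The Itgae chain (CD103) pairs with the beta chain encoded by Itgb7 and binds E-cadherin on epithelial cells, and the Itga1 chain (CD49a) pairs with that of Itgb1 and binds collagen. Ccr9 responds to Ccl25 of the small intestine and thymus, Ccr4 to Ccl17 and Ccl22, Cxcr3 to the interferon-induced chemokines Cxcl9 and Cxcl10, and Cx3cr1 to the membrane-anchored chemokine Cx3cl1. CD103 and CD49a are known from CD8 T cells that reside in tissues, and Cx3cr1 from effector CD8 T cells of the circulation.

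Themis was lower in every cKO library, at 1140 ± 141 scaled counts against 5423 ± 420 in WT (SD, n = 3 each). Counts over the table's genes summed to between 946766 and 1054442 in WT and between 424605 and 437437 in cKO, and the sequencing depth is unknown. Scaled counts are the deposited estimated read counts divided by a factor per library of 0.944 to 1.04 that evens out libraries within a genotype, with both genotypes taken at equal depth. Of the 8 genes listed as markers of CD8 T cell identity only Themis was in the table, and the other listed markers, Cd8a and Cd3e among them, were not analysed here, so the labelled cell type could not be checked against its markers. Log2 ratios of mean counts between -0.94 and 1.06 did not occur in the table. Passing a test is thus a property of the table: of 794 genes with enough counts to test, 100% had an adjusted p under 0.05 (edgeR quasi-likelihood test, Benjamini-Hochberg), 192 of them higher in cKO and 602, or 75.8%, lower.

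All 6 homing receptor transcripts were higher in cKO and passed that test, as did 24.2% of the tested genes in this direction. In all 6 every cKO library lay above every WT library. Over the tested genes, 23.8% had every cKO library above every WT library. The median log2 fold change of the 6 was 1.96, against 1.45 for the 192 genes called higher and -1.34 for all tested genes. Since the table appears selected on this same contrast and the genes were picked with earlier results known, these counts are a description. The genotypes being at equal depth is an assumption: 3 scalings that centre the table on itself raised the log2 fold changes of the 6 to between 2.70 for Cx3cr1 and 4.51 for Itgae. In RNA from whole cultures, more cells with a transcript and more transcript per cell cannot be told apart.

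**Figure D1:**
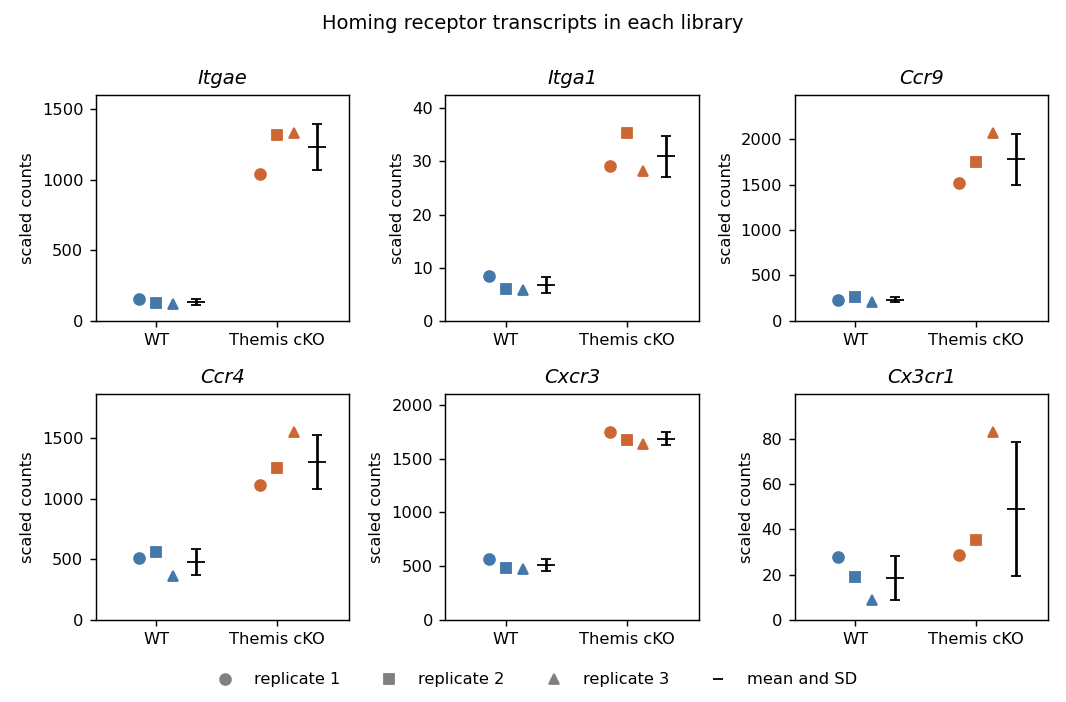
Scaled counts (vertical axes, linear from 0, one scale per gene) of the 6 homing receptor genes in the 3 WT and 3 Themis cKO libraries. Symbols are libraries, and black marks are the mean with its SD. The cKO libraries lie above the WT libraries for each gene, with the smallest gap for Cx3cr1.

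Of the integrin alpha chains followed here, Itgae had the larger change. Itgae (Gene ID 16407, chromosome 11, positions 73090505 to 73147449, plus strand of GRCm38.p6) had 147, 126 and 125 deposited counts in WT replicates 1 to 3 and 1035, 1343 and 1322 in cKO replicates 1 to 3. The WT libraries were close to each other, and the lowest cKO library was far above them. Means of scaled counts were 133 ± 19.7 in WT and 1233 ± 165 in cKO, 9.25-fold higher, with a log2 fold change of 3.21 and a standard error of 0.16 (edgeR, adjusted p = 5.80e-08). Of the 794 tested genes, Itgae had rank 4 by log2 fold change. Itga1 (Gene ID 109700, chromosome 13, 114958079 to 115101964, minus strand) was a transcript of few reads, with 8, 6 and 6 counts in WT and 29, 36 and 28 in cKO. Its groups stayed apart, at 6.71 ± 1.53 and 31.0 ± 3.89 scaled counts, a 4.61-fold difference (log2 fold change 2.19, standard error 0.32, edgeR adjusted p = 9.96e-05). With 20 counts in all WT libraries together, the size of that change is known less well than for Itgae.

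The beta chain that pairs with the Itgae product rose as well. Itgb7 went from 2237 ± 489 to 6234 ± 255 scaled counts (log2 fold change 1.48, edgeR adjusted p = 6.06e-06), and Itga4, whose product also pairs with the Itgb7 product to form a gut-homing integrin, went from 940 ± 173 to 1974 ± 240 (1.07, adjusted p = 8.20e-05). The q-value in the authors' deposited table was 0.143 for Itgb7, above 0.05, and 0.00357 for Itga4. Ratios within a library do not depend on depth, so the 3 chains were also set against each other per transcript length. Itgae transcripts per Itgb7 transcript were 0.0458, 0.0327 and 0.0494 in the WT libraries and 0.121, 0.142 and 0.150 in the cKO libraries. Itga4 per Itgb7 moved the other way, from 0.116 ± 0.00527 to 0.0871 ± 0.0114 (SD, n = 3 each), with no overlap between the genotypes. Itgae per Itga4 was 0.388, 0.297 and 0.411 in WT and 1.43, 1.85 and 1.51 in cKO. Itga4 was thus the more abundant of these alpha chains per length in every WT library and Itgae in every cKO library. That order in cKO depends on the lengths used, those of the longest coding transcript (9767 bases for Itga4, 3845 for Itgae). In deposited counts Itga4 was above Itgae in every cKO library, at 1840, 1848 and 2229 against 1035, 1343 and 1322. Which transcripts were expressed was not examined. These ratios were not tested, and 3 libraries against 3 cannot reach a permutation p under 0.10. Itgb1, whose product pairs with that of Itga1, was not analysed here.

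Of the 27 integrin chains listed, 7 were in the table and tested, 5 higher in cKO and 2 (Itga7 and Itgb4) lower. Itgb4, with 19, 20 and 16 counts in WT and 4, 8 and 2 in cKO, lost its call under the table-centred scalings (edgeR and DESeq2, adjusted p up to 0.394). Itgax, one of the 5, missed it in the upper bound over 16996 genes described below for Cx3cr1 (edgeR adjusted p = 0.0507). Their median log2 fold change was 1.28. The larger of the decreases was that of Itga7, the alpha chain of a laminin receptor, which fell from 292 ± 54.5 to 5.54 ± 1.38 scaled counts, 52.8-fold (log2 fold change -5.66, edgeR adjusted p = 3.93e-08). No gene of the 24 listed for integrin activation, such as talin and kindlin genes, was in the table.

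Among the chemokine receptors followed here Ccr9 changed most. Ccr9 (Gene ID 12769, chromosome 9, 123767211 to 123783457, plus strand) had 211, 265 and 215 deposited counts in WT and 1504, 1780 and 2052 in cKO. The cKO libraries spread more widely than the WT libraries, with replicate 3 the highest, and none came near the WT range. Its mean rose from 230 ± 27.6 to 1779 ± 280 scaled counts, 7.73-fold (log2 fold change 2.95, standard error 0.15, edgeR adjusted p = 7.00e-08), which gave it rank 9 by log2 fold change. Cxcr3 (Gene ID 12766, chromosome X, 101731535 to 101734147, minus strand) had the tightest cKO libraries, with counts of 538, 495 and 492 in WT and 1738, 1705 and 1620 in cKO. It was 3.31-fold higher in cKO, at 510 ± 52.9 against 1688 ± 58.0 scaled counts (log2 fold change 1.73, standard error 0.11, edgeR adjusted p = 3.25e-07).

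Ccr4 (Gene ID 12773, chromosome 9, 114490316 to 114505476, minus strand) had counts of 479, 573 and 374 in WT and 1112, 1274 and 1541 in cKO. WT replicate 3 was the lowest library and cKO replicate 3 the highest, and the genotypes did not overlap. The scaled means were 477 ± 106 and 1309 ± 223, a 2.75-fold difference (log2 fold change 1.46, standard error 0.19, edgeR adjusted p = 4.02e-05). Cx3cr1 (Gene ID 13051, chromosome 9, 120048683 to 120068296, minus strand) was low and uneven, with 26.4, 19.4 and 9 counts in WT and 28.5, 35.7 and 82.5 in cKO. WT replicate 1 and cKO replicate 1 were nearly equal, and cKO replicate 3 held more than the other cKO libraries together. The log2 fold change was 1.42 with a standard error of 0.50 (edgeR adjusted p = 0.0179), for 18.6 ± 9.68 against 49.0 ± 29.8 scaled counts. That call rests on single libraries: the log2 fold change was 0.82 without cKO replicate 3 (adjusted p = 0.0988) and 1.11 without WT replicate 3 (adjusted p = 0.0591). The ratio of deposited p-values to q-values implies 16996 genes, and an adjustment over that number left 5 of the 6 homing receptors called higher, beside 20.4% of the tested genes, and Cx3cr1 was the one lost (adjusted p = 0.384). Itgae, Itga1 and Cxcr3 had whole counts in all 6 libraries, while Ccr9 and Cx3cr1 had a whole count in 1 library each and Ccr4 in 0, so part of their reads was assigned by estimation.

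Sequences before a start site of the chemokine receptor genes with over 1000 counts per cKO library are shown because these are the receptors with the most reads behind their values. Each is the 250 bases before the RefSeq start site on GRCm38.p6, 5′ to 3′ on the gene's strand, with capitals for a match to any of 5 motifs. The Ccr9 and Cxcr3 windows adjoin the ends of the gene spans given above, whereas the Ccr4 window precedes a start site inside the gene's span and does not lie upstream of the whole gene.
Ccr9 (chr9:123766961-123767210, plus strand): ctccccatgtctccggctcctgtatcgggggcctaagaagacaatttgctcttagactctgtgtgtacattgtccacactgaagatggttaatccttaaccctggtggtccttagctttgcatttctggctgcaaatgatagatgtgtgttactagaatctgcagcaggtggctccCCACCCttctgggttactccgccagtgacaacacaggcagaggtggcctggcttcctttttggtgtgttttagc
Cxcr3 (chrX:101734148-101734397, minus strand): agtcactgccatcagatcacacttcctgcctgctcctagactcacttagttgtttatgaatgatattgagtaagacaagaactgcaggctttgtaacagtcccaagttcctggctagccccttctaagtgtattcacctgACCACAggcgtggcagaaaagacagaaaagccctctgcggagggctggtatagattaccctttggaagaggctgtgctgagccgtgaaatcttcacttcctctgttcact
Ccr4 (chr9:114496545-114496794, minus strand): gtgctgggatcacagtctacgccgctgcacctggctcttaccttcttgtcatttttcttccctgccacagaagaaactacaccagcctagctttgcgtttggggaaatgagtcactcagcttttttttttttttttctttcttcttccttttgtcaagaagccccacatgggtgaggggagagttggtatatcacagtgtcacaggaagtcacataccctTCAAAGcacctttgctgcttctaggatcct
The motifs searched on both strands were TGTGGT for RUNX factors, CTTTGA for TCF and LEF factors, CCACCC for KLF factors, GGAAAA for NFAT and TTCNNNGAA for STAT factors, and no matches overlapped. The Ccr9 window held 1 match, to the KLF motif, 74 bases before the start site. The Cxcr3 window held 1 RUNX match, starting 110 bases before the start site, and the Ccr4 window 1 TCF and LEF match, starting 30 bases before it. A window was found for 5 of the 6 genes, Itgae being the exception. The Itga1 window held 1 TCF and LEF match, and that of Cx3cr1 1 KLF and 1 RUNX match. None of these windows held the NFAT or the STAT letters. Of all 32851 windows of this length, 14% held the RUNX motif, 13.8% the TCF and LEF motif, 28.1% the KLF motif, 20.4% the NFAT motif and 7.02% the STAT motif. A match describes the letters and does not show binding.

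Changes of unequal size were compared by the log2 ratio of 2 receptors' counts within a library, which no scaling can alter. Ccr9 gained on Ccr4 by 1.47 (standard error 0.12) and on Cxcr3 by 1.21 (0.21). Itgae gained on Ccr4 by 1.74 (0.20), on Cxcr3 by 1.48 (0.15) and on Itga1 by 1.07 (0.14). In each of these pairs the ratios of the genotypes did not overlap. For Itgae and Ccr9 the gain was 0.26 (0.17): log2 Itgae to Ccr9 was -0.79 ± 0.27 in WT and -0.53 ± 0.11 in cKO (SD, n = 3 each), with overlapping values. Ccr4 and Cxcr3 also overlapped, at -0.12 ± 0.31 and -0.38 ± 0.29. Of 15 pairs, 10 had ratios that did not overlap between the genotypes, each with p = 0.1 in a two-sided exact permutation test, the smallest p that 3 libraries against 3 allow. Adjusted over the 15 pairs by Benjamini-Hochberg the smallest p was 0.15, so no pair passed 0.05, which this design cannot reach. The 5 pairs that overlapped included 3 of the 5 with Cx3cr1, whose standard errors were 0.47 to 0.64.

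**Figure D2:**
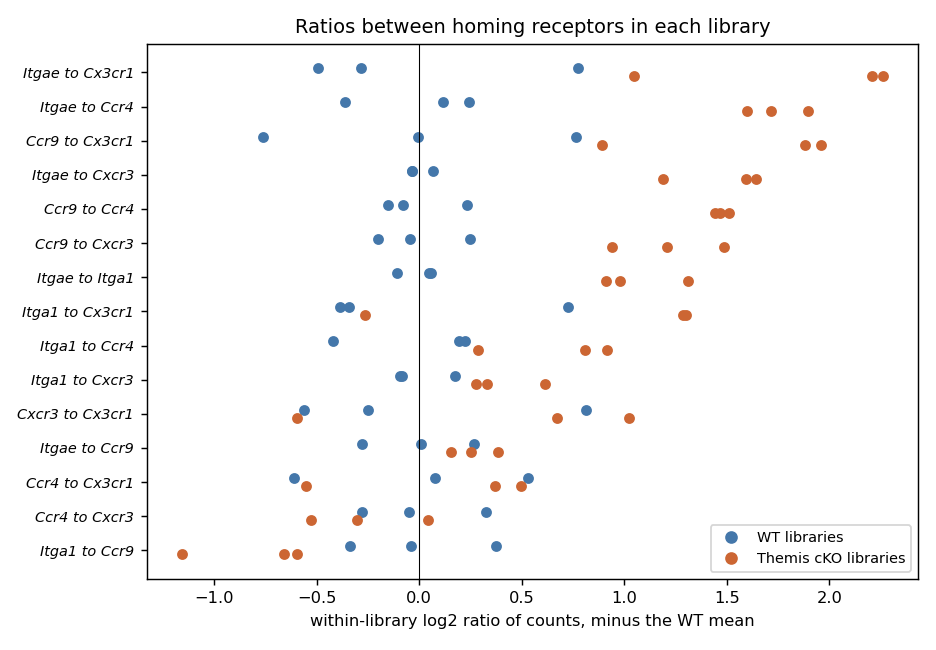
Within-library log2 ratio of deposited counts (horizontal axis, shifted so that the WT mean is 0) for the 15 pairs of receptor genes, 1 point per library, WT in blue and Themis cKO in orange. The genotypes separate for 10 pairs; Itgae to Ccr9 and Ccr4 to Cxcr3 are among the 5 that overlap.

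Levels were put on a common scale as scaled counts per kilobase of the longest coding transcript. In WT the order was Cxcr3 (294 ± 30.6), Ccr4 (170 ± 37.7), Ccr9 (44.3 ± 5.31), Itgae (34.6 ± 5.11), Cx3cr1 (4.13 ± 2.16) and Itga1 (0.612 ± 0.140). The cKO libraries kept the same order, with Cxcr3 at 975 ± 33.5 per kilobase, Ccr4 at 467 ± 79.6, Ccr9 at 342 ± 53.9, Itgae at 321 ± 42.9, Cx3cr1 at 10.9 ± 6.64 and Itga1 at 2.82 ± 0.354. In both genotypes Ccr9 and Itgae were the neighbours in that order whose ranges overlapped. Cxcr3 was the most abundant of the 6 per length in each genotype. In cKO that depends on the lengths used, 1731 bases for Cxcr3 and 5197 for Ccr9. Without length the mean of Ccr9 was the higher in cKO, at 1779 ± 280 scaled counts against 1688 ± 58.0.

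The authors' deposited table gives the 6 genes other sizes and another order. Its log2 fold changes were 2.80 for Itga1 (q-value 2.65e-06), 2.12 for Itgae (0.00678), 2.08 for Ccr9 (0.00133), 1.76 for Cx3cr1 (0.00878), 1.12 for Cxcr3 (0.0314) and 0.82 for Ccr4 (0.194). By its q-values the authors' deposited table thus calls 5 of the 6 higher at 0.05, as it does 12.5% of the 854 genes, and Ccr4 was not. The values in the authors' deposited table were smaller than those of the edgeR fit by 0.61 to 1.09 for Itgae, Ccr9, Ccr4 and Cxcr3 and larger by 0.34 and 0.60 for Cx3cr1 and Itga1. The cause of these differences was not tested.

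Of the 24 chemokine receptors listed, 5 were in the table: Ccr9, Cxcr3, Ccr4 and Cx3cr1, all higher, and Ccrl2, an atypical receptor that binds chemerin, which fell. Ccrl2 went from 905, 1018 and 1212 scaled counts in the WT libraries to 67.5, 72.8 and 70.7 in cKO, 14.9-fold lower (log2 fold change -3.89, edgeR adjusted p = 2.15e-08). The receptors listed without a row in the table, Ccr7 and Cxcr6 among them, were not analysed here. Of 29 genes for signalling downstream of chemokine receptors, the table held 3, each lower in cKO, beside 75.8% of all tested genes. They were Rgs1 (-2.28), which shortens G protein signalling, Rgs2 (-1.33), of the same family, and Arrb1 (-2.22), an arrestin that uncouples and internalises receptors. Under the table-centred scalings Rgs2 was no longer called (adjusted p of 0.839 to 0.877, edgeR and DESeq2). The q-value in the authors' deposited table was 0.110 for Rgs1, above 0.05, 0.0386 for Rgs2 and 1.55e-32 for Arrb1.

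Transcripts of the ligands of Cxcr3 and those of Cxcr3 itself differed in opposite directions. Cxcl10 had 5356, 6029 and 6562 scaled counts in the WT libraries and 208, 235 and 248 in cKO, 25.9-fold lower (log2 fold change -4.70, edgeR adjusted p = 2.02e-09). Cxcl9 fell from 89.8 ± 15.2 to 7.88 ± 3.34 scaled counts (log2 fold change -3.53, edgeR adjusted p = 3.76e-06). Ccl22, a ligand of Ccr4, was low and uneven, with 1, 8 and 14 counts in WT and 14, 36 and 36 in cKO. Its log2 fold change was 1.90 with a standard error of 0.59 (edgeR adjusted p = 0.0100, or at most 0.215 over the 16996 implied genes). These were the 3 of 12 listed ligand genes that the table held, and Ccl25, Ccl17, Cx3cl1 and Cdh1 were not analysed here. Of 27 other chemokines, 3 were in the table, where Ccl3 (-2.93) and Ccl4 (-2.63) fell and Pf4, at 0 counts in WT and 15 in cKO, was too low to test. The q-value in the authors' deposited table was 0.0258 for Ccl3 and 0.0627 for Ccl4.

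Of 26 genes listed with tissue residency, 10 were in the table and tested, 2 higher (Itgae and Itga1) and 8 lower, of which the table-centred scalings turned 3 and ended the call of Rgs2. That is near the background, where 75.8% of all tested genes were lower. Over the 10 the median log2 fold change was -1.23. Cd69, which keeps T cells in tissue by opposing S1pr1, fell from 9366 ± 487 to 2440 ± 77.5 scaled counts (log2 fold change -1.94, edgeR adjusted p = 1.23e-08). The orphan nuclear receptors Nr4a2 and Nr4a1 had log2 fold changes of -3.48 and -2.25. Prdm1, the transcription factor Blimp-1, was at -1.14 and turned sign under the table-centred scalings, as did Litaf (-0.96) and Cd101 (-1.09), which are named because their sign turned and not by the naming rule. The q-values in the authors' deposited table were above 0.05 for Prdm1 (0.137), Litaf (0.367) and Cd101 (0.0710). They were lower for Cd69 (0.0206), Nr4a2 (1.64e-12) and Nr4a1 (1.69e-10). The table held 5 of 18 genes listed for circulating memory T cells. Each was called higher by edgeR, beside 24.2% of all tested genes, with a median of 1.42. Besides Cx3cr1 these were S1pr1 (1.88), Tcf7 (1.53), Klf3 (1.19) and Klf2 (1.15). In that order their q-values in the authors' deposited table were 0.420, 0.456, 0.588 and 0.553, so none was called there. S1pr1 had 3955, 4012 and 4772 scaled counts in the cKO libraries against 1271, 1388 and 806 in WT.

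**Figure D3:**
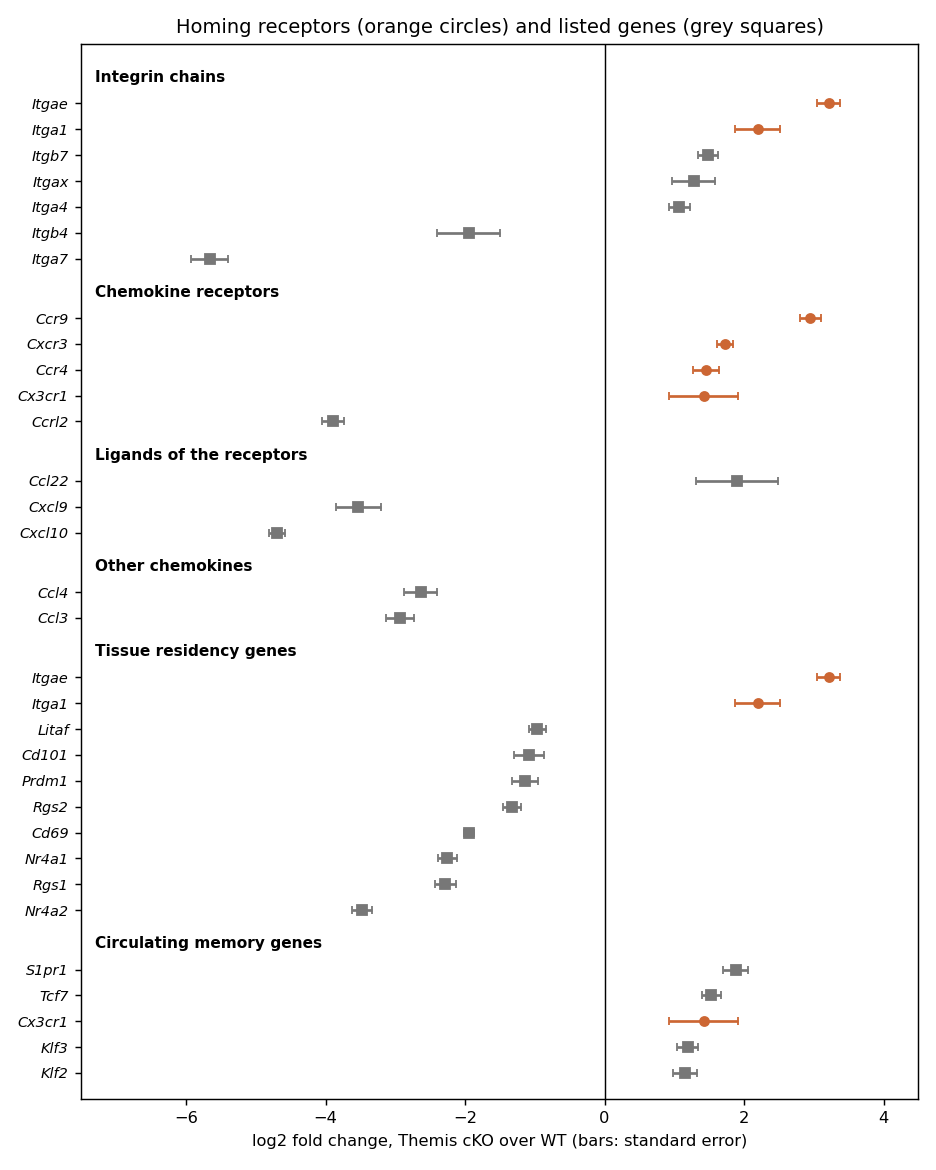
Log2 fold change of Themis cKO over WT (horizontal axis, bars are standard errors) for tested genes of 6 of the lists, with the 6 homing receptors as orange circles and other genes as grey squares. The receptors lie between 1.42 and 3.21, while 8 of 10 tissue residency genes lie below 0, of which Prdm1, Litaf and Cd101 turn sign and Rgs2 loses its call under the table-centred scalings.

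Other homing and egress genes went both ways. Of 30 listed, 5 were in the table and 4 were tested, 2 higher and 2 lower. Gpr15, a receptor for homing to the large intestine, rose from 13.7 ± 1.18 to 44.8 ± 24.2 scaled counts (log2 fold change 1.70, edgeR adjusted p = 0.00224). Its cKO libraries had 29.2, 32.5 and 72.7, and its q-value in the authors' deposited table was 0.279. Icam1 (-1.02), a ligand of the integrin LFA-1, turned sign under the table-centred scalings, and Cd6 (-1.71), which binds the adhesion molecule ALCAM, did not. The retinoic acid list, chosen because retinoic acid is known to induce Ccr9 in T cells, had 1 of 17 genes in the table, the retinoid receptor Rxra, which rose from 669 ± 117 to 1699 ± 183 scaled counts (1.35, edgeR adjusted p = 1.38e-05). No gene of the 22 listed for TGF-beta signalling, known to induce Itgae, was in the table. Of 28 transcription factors of homing and CD8 T cell fate, 4 were in the table: Tcf7 and Klf2 were higher, Irf4 (-2.36) was lower, and Prdm1 was lower with the exception above.

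Markers of other cell types were read in the same libraries, since NK cells, gamma-delta T cells, dendritic cells and monocytes can also carry these receptors. Over all tested genes 24.2% were called higher in cKO and 75.8% lower, which is the background to the counts below. The table held 10 of 19 NK cell markers, each higher in cKO, with summed scaled counts of 673 to 989 in WT and 1630 to 2897 in cKO. All 3 gamma-delta T cell markers in the table, of 11, were higher (sums of 200 to 251 and 517 to 1528), as were all 3 B cell markers, of 13 (60.0 to 102 and 118 to 308). Of 14 dendritic cell markers 5 were in the table, 2 higher and 3 lower (4804 to 5056 and 1806 to 2399). The monocyte and macrophage list had 2 of 12, both lower (6575 to 10586 and 3635 to 4240), and the CD4 and regulatory T cell list 2 of 7, both lower (850 to 968 and 274 to 444). Lower members of these last 3 lists in part turned sign or lost their call under the table-centred scalings. Bst2 made most of the dendritic cell sum and Ly6c2 most of the monocyte and macrophage sum. The genes of the CD4 and regulatory T cell list were Ctla4 and Ikzf2. Whether these transcripts came from other cell types or from the OT-I cells was not tested. The granulocyte, mast cell and erythroid list had 3 of 16 genes, all too low to test (sums of 1.97 to 12.5 and 7.05 to 35.3), and the stromal, endothelial and epithelial list 2 of 12, of which 1 was tested and lower (29.5 to 57.6 and 4.03 to 19.2).

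Within the cKO libraries the NK cell sum was 2897, 2113 and 1630 in replicates 1 to 3. Cxcr3 had the same order as that sum, at 1750, 1677 and 1635 scaled counts, and Itga1 was lowest in replicate 3 (28.3). Replicate 1 was the cKO library with the lowest Itgae, Ccr9, Ccr4 and Cx3cr1, and replicate 3 held the highest Itgae, Ccr9, Ccr4, Cx3cr1 and B cell sum in scaled counts. The gamma-delta T cell sum peaked in cKO replicate 2, at 1528, where Itga1 was highest. Cd163l1 made most of that sum, at 1363 scaled counts. Of the other markers in that list Sox13 also peaked in replicate 2, at 126, and Blk in replicate 3, at 59.6. No marker in the NK, gamma-delta T or B cell lists that the table holds was at 0 in a whole genotype. Under the upper bound over the 16996 implied genes, 9 of the 10 NK cell, 1 of the 3 gamma-delta T cell, 1 of the 3 B cell and 0 of the 2 higher dendritic cell markers stayed called (edgeR). Of all tested genes, 20.4% were called higher under that bound. The B cell marker Ms4a1, named after its values were seen, overlapped between genotypes, with 16.1 scaled counts in cKO replicate 1 and up to 27.8 in WT. The part of these cells in the receptor values was not tested.

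**Figure D4:**
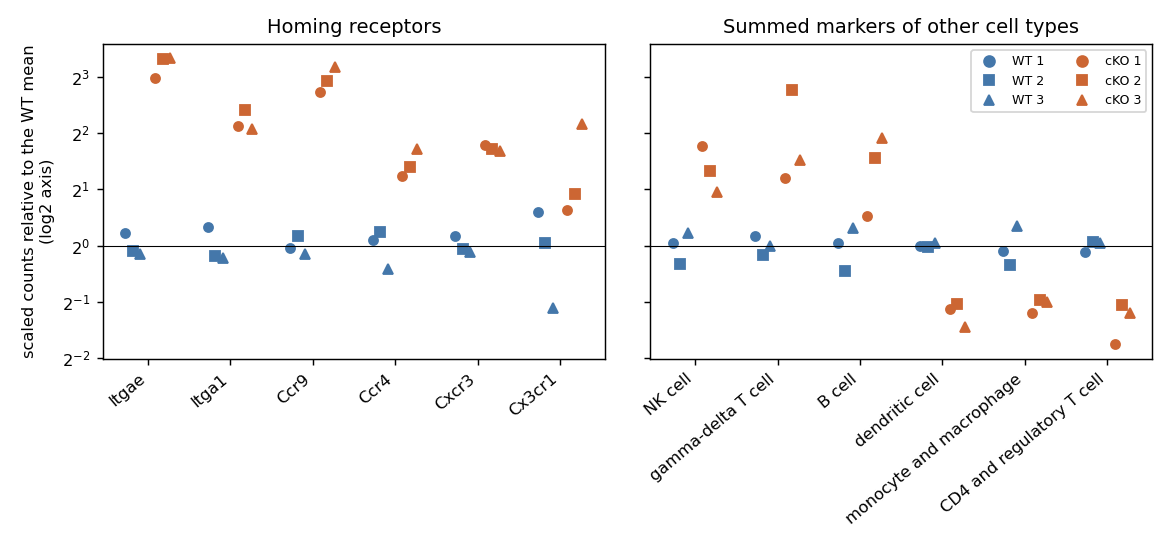
Scaled counts of the 6 receptor genes (left) and summed scaled counts of the markers of 6 other cell types (right) in each library, relative to the WT mean on a log2 axis, with symbols for replicates, WT in blue and Themis cKO in orange. Receptor values and the NK, gamma-delta T and B cell sums are above 1 in the cKO libraries, and of the cKO libraries replicate 1 has the highest NK cell sum, the highest Cxcr3 and the lowest Itgae, Ccr9, Ccr4 and Cx3cr1. Most of the gamma-delta T cell, dendritic cell, and monocyte and macrophage sums comes from Cd163l1, Bst2 and Ly6c2, in that order.

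Likeness of profile was measured over the 6 libraries as the root-mean-square difference of log2 scaled counts, each gene centred on its own mean, among the 794 tested genes. Itgae and Ccr9 were each other's nearest gene, 0.22 apart on the log2 scale. For Itgae the next were Sorcs2 (0.30) and 5830411N06Rik (0.34), and for Ccr9 Sorcs2 (0.25) and Dntt (0.26), the enzyme that adds untemplated bases to antigen receptor genes. Sorcs2 had few reads, at 2.68 ± 0.671 scaled counts in WT and 22.6 ± 4.38 in cKO, so the pseudocount of 1 weighs on its profile. The cKO libraries of 5830411N06Rik were uneven, at 2898.5 ± 1422 scaled counts. The nearest gene to Itga1 was Cxcr3 (0.21), followed by Slc16a5 (0.24), a transporter of the monocarboxylate family, and Nqo1 (0.26), a quinone reductase. For Cxcr3 they were Slc16a5 (0.069), Nqo1 (0.15) and Nrarp (0.15), and for Ccr4 St3gal1 (0.072), a sialyltransferase, Pgap1 (0.086) and Pag1 (0.087). Cx3cr1 had no close neighbour: the nearest were Gm40368 (0.41), Gpr34 (0.41) and Gpr15 (0.42). These distances describe 6 libraries that share 1 contrast.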

How the data were processed

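Estimated count values, made by the authors from the reads and deposited in 1 table of 854 genes for 6 libraries, were analysed. The submitters' processing notes name GRCm38.p6 and, without roles, RSEM 1.2.12 and DESeq2 1.4.5 beside HISAT2 2.0.4 and Bowtie2 2.2.5. Per the file headers the authors also deposited, for each gene, a q-value, a p-value and the log2 fold change of cKO over WT. No source used here says how genes were chosen for the table. Of the count values, 66.1% were whole within 1e-06.

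Counts were rounded and fitted with edgeR 4.0.16 in R 4.3.3 (quasi-likelihood test, genotype as the only term) over the 794 genes passing its expression filter with a smallest count of 10, and 60 were left out. Adjusted p-values are Benjamini-Hochberg over all 794, called at 0.05, and standard errors were derived from F statistics. Library factors were median-of-ratios values within a genotype from genes above 10 counts. Within-library ratios used a pseudocount of 0.5, likeness a pseudocount of 1. Named genes are the 6 receptors, Themis, listed genes in the table (the 4 with the smallest p where over 4), the 3 nearest profiles and neighbours within 1000 kb. The receptors and the 12 pathway and 9 marker lists were chosen with earlier results of these data known. No pair of replicates agreed within sampling noise (chi-square of 6.34 to 19.7 per degree of freedom), so none was counted as a duplicate, which does not show separate cultures. Coordinates and upstream sequences are from RefSeq on GRCm38.p6 (842 of 854 Gene IDs matched) and transcript lengths from GENCODE on the same genome. Precision is limited by 3 libraries per genotype. Alternatives covered scaling, test, count filter, the number of genes adjusted for, a replicate block, the pseudocount and each library left out. Other tools were matplotlib 3.10.9, scipy 1.17.1, numpy 2.4.6 and pandas 2.3.3 in Python 3.11.15, and DESeq2 1.42.0.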

Additional observations from a re-analysis of the deposited data

How the results depend on the processing

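Under all 15 alternatives Itgae, Itga1, Ccr9, Ccr4 and Cxcr3 stayed higher in cKO with an adjusted p of at most 0.00213 (edgeR and DESeq2). Their log2 fold changes ranged from 3.15 to 4.51, 2.07 to 3.51, 2.83 to 4.25, 1.32 to 2.76 and 1.71 to 3.02. Cx3cr1 kept its direction (0.82 to 2.72) and its call under 11 of 15. With 1 library left out its value was 0.82 to 1.79, and its call ended without WT replicate 3 or cKO replicate 3. Over 16996 genes its value was 1.42 with an adjusted p of 0.384 as an upper bound. With the replicate number as a block it was 1.33 (adjusted p = 0.0624, edgeR); that block changed the call of no other homing receptor. Same-numbered libraries did not deviate together (correlations of -0.063, -0.054 and -0.16), which does not show whether they share a culture or batch. The table-centred scalings, which are TMM, DESeq2 size factors and DESeq2 itself, moved the median log2 fold change by 1.31 with TMM. They gave 226 and 213, 224 and 211, and 236 and 215 genes higher and lower, against 192 and 602. In the same order Icam1 turned to 0.27, 0.28 and 0.28, Prdm1 to 0.15, 0.16 and 0.16, Litaf to 0.33 each, Cd101 to 0.20, 0.21 and 0.21, and Csrnp1 to 0.072, 0.076 and 0.076. A scaling centred on selected genes shifts every gene alike by construction. The count of pairs whose ratios did not overlap was 10 to 12 of 15 when a library was left out. The scaling between genotypes needs whole-library depths, which were not used here, and Itga1, Cx3cr1 and Ccl22 are limited by their low counts.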

Other observations

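The table held 5 genes within 1000 kb of a homing receptor gene. Each of those tested was called lower in cKO, as were 75.8% of all tested genes. Csrnp1, a nuclear protein induced by growth signals, lies 63.9 kb from Cx3cr1 on chromosome 9 (119971163 to 119984742) and went from 4989 ± 344 to 2141 ± 132 scaled counts (log2 fold change -1.22, edgeR adjusted p = 5.68e-07), a direction that turned under the table-centred scalings. Slc7a3, a cationic amino acid transporter, lies 641 kb from Cxcr3 on chromosome X and fell by 2.67 on the log2 scale (edgeR adjusted p = 9.97e-06). On chromosome 11 Smtnl2, 679 kb from Itgae, fell by 2.84, and the interferon-induced gene Xaf1, 777 kb from Itgae, fell from 3129 ± 54.8 to 645 ± 73.2 scaled counts. Fbxo39, 771 kb from Itgae, was too low to test, at 13.4 ± 7.98 scaled counts in WT and 2.01 ± 1.02 in cKO. The table held no other gene within that distance of Itga1, Ccr9 or Ccr4.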
